A study of Mus musculus with 16 samples.

Results

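Colon tumours of Apcmin/+ mice were compared with normal colon mucosa of wt mice, 2 samples against 2, by the RNA level of every gene that could be read on the 4 arrays. A gene was a member when a probe naming it had a detection p under 0.05 on 2 or more of the 4, which 10070 of the 16593 genes named on the array met. Both groups were 3 months old, of a mixed background of B6, 129, Balbc and CD1, and on doxycycline from an age of 6 to 7 weeks. The drug switches on a LIN28B transgene in other groups of the series, and neither genotype here lists that transgene. The tumours were labelled adenoma and the mucosa normal. Tissue was dissected and snap-frozen whole, so that each value is a mean over epithelium, stroma, vessels, muscle and blood cells. In such samples fewer cells of a type and less RNA per cell cannot be told apart. Uninvolved mucosa of Apcmin/+ mice was not analysed here, and the carried allele therefore cannot be told apart from the tumour state. The labels do not say that the 4 samples came from separate litters or cages. The p-values rest on a spread pooled within the 7 groups of the series, and not on these 4 samples alone. Of those groups, the LIN28B small intestinal tumours were 8 months old.

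Apc is a scaffold of the complex that marks beta-catenin for destruction. The Apcmin allele truncates the protein, and adenomas grow from cells that have also lost the remaining normal copy, so that beta-catenin with TCF factors keeps Wnt target genes on. In the healthy colon Wnt signals hold stem cells at the crypt base, and cells that move up the crypt leave the cycle and become absorptive colonocytes, mucus-filled goblet cells, hormone cells or tuft cells. Adenomas are also known to draw in neutrophils and to remodel the matrix around them.

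Detection was even: each of the 4 arrays detected from 51.0% to 56.5% of its 25697 probes. Over the series 14 of 16 arrays were readable (at least 20% of probes detected), and the 2 others, of the wt small intestine and of LIN28B/Apcmin colon tumours, belonged to neither group. The 14 readable arrays were fitted together in their 7 groups so that they share 1 estimate of the spread. Besides the 2 groups compared, these were wt small intestine, LIN28B, Apcmin and LIN28B/Apcmin small intestinal tumours, and LIN28B/Apcmin colon tumours. Titles of the 3 LIN28B/Apcmin colon tumours fitted all open with the number 2135, and those of the 2 LIN28B tumours with 1737. The labels do not say whether a shared number marks a shared animal. The epithelial marker Cdh1 read 10.83 and 11.07 in mucosa and 10.96 and 10.89 in tumours, close in both tissues. Krt8 read 14.18 and 14.18 in mucosa and 13.81 and 13.89 in tumours. Krt19 read 12.61 and 12.70 in mucosa and 12.04 and 12.51 in tumours, and Vil1 11.84 and 11.65 in mucosa and 11.02 and 11.23 in tumours. Krt8, Krt19 and Vil1 were thus lower on both tumour arrays, and none of these markers was called. Small intestinal markers differed among themselves. The lipoprotein Apoa4 was detected on none of the 4 arrays. Fabp6 was detected on all 4, at 6.42 and 7.23 in mucosa and 5.63 and 5.38 in tumours. Sis was detected on both mucosa arrays, at 5.06 and 6.33, and on no tumour array. Neither Fabp6 nor Sis was called. The colon marker Aqp8 was bright in mucosa. Levels are log2 intensity after background correction and quantile normalisation, given for replicate 1 and then 2, and a level of 1 probe cannot be set against that of another.

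Limma called 1630 of the 11230 genes tested (14.5%; Benjamini-Hochberg adjusted p under 0.05 over all tested), and every one was a member. Of these, 743 were higher in tumours (6.62%) and 887 lower (7.9%). At least a 2-fold difference was seen for 510 of the higher and 645 of the lower, and at least a 4-fold one for 167 and 193. The median log2 difference of all genes tested was 0.016. The 2 tumour arrays lay beyond both mucosa arrays for 68.2% of all genes tested, called or not. Members included 173 genes detected on both tumour arrays and no mucosa array and 399 the other way round, of which 69 and 143 were called. Such genes entered through the group in which they were bright, and their counts carry no weight of their own. The count rested on the arrays used. The 4 arrays fitted alone called 3615 genes, among them all 1630, and a fit over all 16 arrays, with the 2 unreadable ones, called 0 (370 at an unadjusted p under 0.05, against 3227 on the 14). Without wt replicate 1, wt replicate 2, tumour replicate 1 or tumour replicate 2 the count was 602, 648, 584 and 707. None of the 1630 changed direction under any of these fits.

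**Figure D1:**
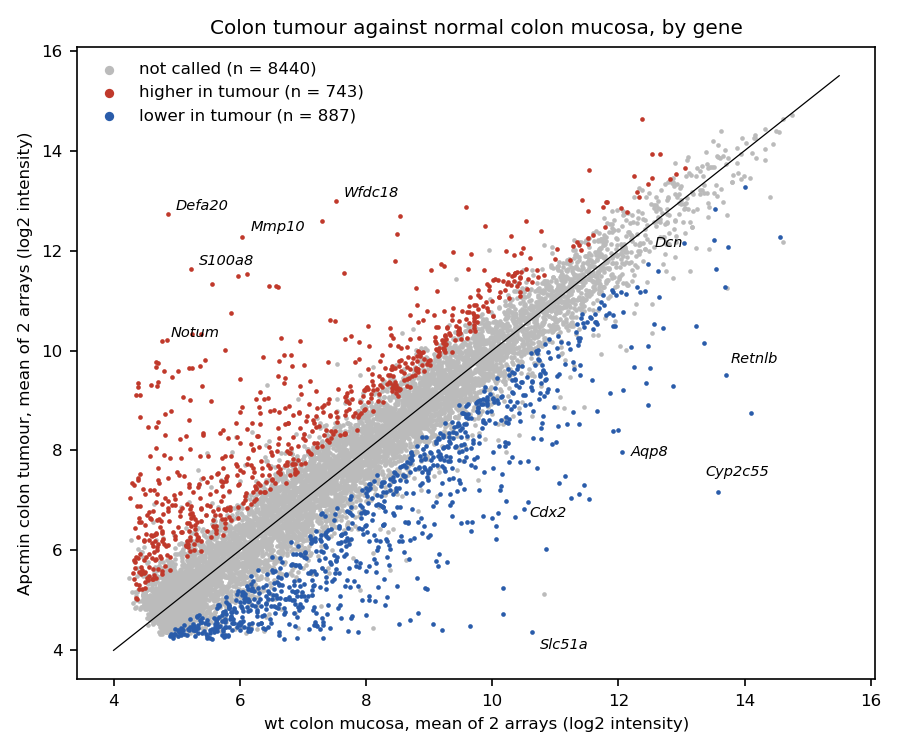
Mean log2 intensity of each of the 10070 measured genes in Apcmin colon tumours (vertical axis, n = 2) against wt colon mucosa (horizontal axis, n = 2), with the 743 called higher in red, the 887 called lower in blue and equality as a line. Defa20, S100a8 and Mmp10 lie far above the line, Cyp2c55 and Slc51a far below it, and the fibroblast gene Dcn on it.

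Below, a difference is tumour minus mucosa on the log2 scale ± its limma standard error, with the adjusted p of the same fit. Where a gene was undetected on both arrays of a group, no difference is given, and a bound states the fold by which the bright group exceeds the lowest detected signal of the dim one. The 53 gene lists were chosen with earlier results of these data known, so that their counts describe and do not test them. For a list, counts without 1 array follow the order wt replicate 1, wt replicate 2, tumour replicate 1 and tumour replicate 2. For a gene that lost its call, the array named is the one whose loss gave the highest adjusted p. Many of these genes lost the call whichever of the 4 arrays was left out, and they are named with the settings below.

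**Figure D2:**
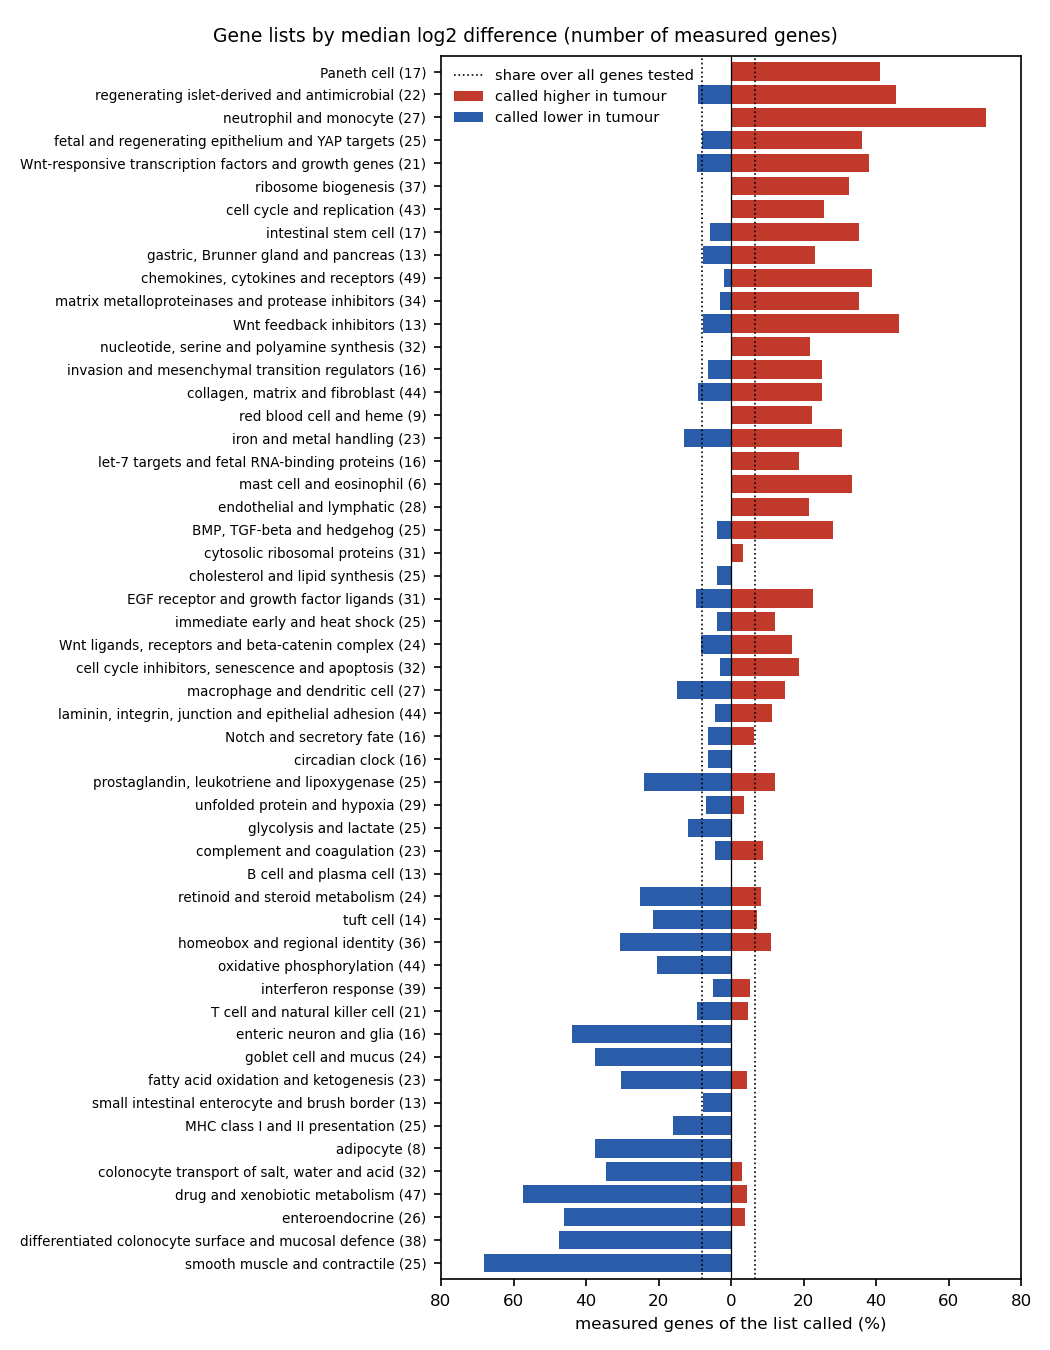
Share of the measured genes of each of 53 lists called higher (red, right) and lower (blue, left) in tumours, in percent, with the number measured in brackets and lists ordered by median log2 difference. Dotted lines mark the shares over all genes tested, 6.62% and 7.9%, which neutrophil, Wnt inhibitor and antimicrobial lists passed to the right and smooth muscle, xenobiotic and colonocyte lists to the left.

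Several inhibitors of Wnt signalling, some secreted and some inside the cell, were higher in the tumours. Of 13 measured, 6 were higher and 1 lower (6, 5, 5 and 6 higher without 1 array), with a list median of 0.61. Notum, an enzyme that strips the lipid from Wnt ligands, read 5.05 and 4.49 in mucosa and 10.37 and 10.01 in tumours, a difference of 5.42 ± 0.76 (adjusted p = 0.00123). Wif1, which binds Wnt ligands outside the cell, read 5.72 and 5.04 in mucosa and 10.65 and 10.01 in tumours (4.95 ± 0.76, adjusted p = 0.00192). In both genes the groups lay more than 4 log2 units apart and the arrays of a group within 1. The membrane inhibitor Apcdd1 read 5.63 and 4.78 in mucosa and 9.09 and 8.92 in tumours (3.80 ± 0.64, adjusted p = 0.00327). Axin2, the scaffold that Wnt signalling itself induces, read 8.59 and 8.99 in mucosa and 11.23 and 11.28 in tumours (2.47 ± 0.22, adjusted p = 0.000113), and Rnf43, a ligase that removes Wnt receptors, read 5.31 and 5.38 in mucosa and 7.27 and 7.38 in tumours (1.97 ± 0.30, adjusted p = 0.00193). The Dishevelled binders Nkd1 and Nkd2 went opposite ways, with 1.68 ± 0.33 and -1.23 ± 0.22 (adjusted p = 0.00879 and 0.00385). Past 0.05 with 1 array left out went Nkd1 (to 0.0778 without tumour replicate 1).

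Among ligands, receptors and the beta-catenin complex, 4 were higher and 2 lower of 24 measured (3, 4, 3 and 4 higher without 1 array). Wnt10a, undetected in mucosa, read 8.86 and 8.48 in tumours, at least 15.6-fold higher. Wnt6 read 4.81 and 4.83 in mucosa and 8.52 and 8.09 in tumours (3.49 ± 0.48, adjusted p = 0.00112), and Wnt5a, a ligand of the non-canonical branch, 7.05 and 6.83 in mucosa and 8.86 and 8.65 in tumours (1.82 ± 0.24, adjusted p = 0.000917). The receptor Fzd10 was higher by 1.58 ± 0.29 (adjusted p = 0.00457), but by -0.06 for its other probe, detected on 2 arrays. The ligand Rspo3, a stromal factor that sustains stem cells, was lower (-1.53 ± 0.36, adjusted p = 0.0173), as was the factor Tcf7l2 (-0.68 ± 0.20, adjusted p = 0.0467). Apc mRNA itself read 6.43 and 6.26 in mucosa and 6.37 and 6.44 in tumours (0.06 ± 0.28, adjusted p = 0.928), which says nothing of the protein, since a truncating allele can still be transcribed. Ctnnb1, which encodes beta-catenin, read 11.77 and 11.58 in mucosa and 12.10 and 11.87 in tumours (0.31 ± 0.20, adjusted p = 0.36). With 1 array left out, the adjusted p passed 0.05 for Fzd10 (to 0.0544 without tumour replicate 1), Rspo3 (to 0.126 without wt replicate 1) and Tcf7l2 (to 0.294 without wt replicate 1).

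Of 21 measured transcription factors and growth genes that respond to Wnt, 8 were higher and 2 lower (5, 6, 6 and 6 higher without 1 array). Prox1, a homeobox factor, read 4.96 and 4.45 in mucosa and 9.91 and 9.58 in tumours (5.04 ± 0.78, adjusted p = 0.00194). Sp5, a zinc finger factor directly induced by beta-catenin, read 4.80 and 5.04 in mucosa and 9.67 and 9.27 in tumours (4.55 ± 0.38, adjusted p = 8.57e-05). Both were dim in mucosa and bright in both tumours. Tbx3 (1.65 ± 0.27), Tiam1, an exchange factor for Rac (1.59 ± 0.33), and Ets2 (1.15 ± 0.15) were also called (adjusted p = 0.00285, 0.00879 and 0.000958). Myc, the growth regulator, read 4.86 and 4.95 in mucosa and 5.67 and 5.76 in tumours (0.81 ± 0.28, adjusted p = 0.0758), and Ccnd1, cyclin D1, 10.79 and 11.12 in mucosa and 11.78 and 12.11 in tumours (0.99 ± 0.40, adjusted p = 0.128). In both the tumours lay above the mucosa, and neither passed the test. Calls lost with 1 array left out were Tiam1 (to 0.0706 without tumour replicate 2).

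The promoter of Sp5 is shown because it is the only one of the 11 promoters found for called inhibitors and Wnt-responsive genes that held CTTTGAT, a core site of TCF factors, within 150 bases before the start. It comes from RefSeq (GRCm38.p6, plus strand, chr2:70474773-70474922), with the matched letters in capitals.
Sp5: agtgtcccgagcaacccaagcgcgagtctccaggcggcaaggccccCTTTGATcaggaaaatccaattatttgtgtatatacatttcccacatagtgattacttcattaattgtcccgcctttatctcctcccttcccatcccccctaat
The match starts 104 bases before the transcription start. CTTTGAT on either strand was present in 2.09% of the promoters of all 27025 genes of the table, in 2.74% of those of genes called higher, 1.42% of those called lower and 1.6% of those not called. The search covered 6 motifs in windows of 250 and 150 bases: this one, the AP-1 site TGANTCA, the CDX site (letters TTTATG), 1 side of the HNF4 repeat (letters CAAAGTCCA), the serum response element and the NF-kappaB site. The motifs and the window shown were picked after the matches had been seen.

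Stem cell genes followed in part: of 17 measured, 6 were higher and 1 lower (5, 5, 6 and 5 higher without 1 array). The stem cell receptor Lgr5 read 5.93 and 6.07 in mucosa and 9.28 and 9.59 in tumours (3.44 ± 0.52, adjusted p = 0.0017). Ascl2, a transcription factor of stem cells, read 5.48 and 5.6 in mucosa and 7.17 and 7.76 in tumours (1.93 ± 0.41, adjusted p = 0.0105), and the RNA-binding Mex3a 4.96 and 5.19 in mucosa and 7.83 and 7.87 in tumours (2.78 ± 0.28, adjusted p = 0.000194). All 3 were higher on both tumour arrays than on either mucosa array. Cd44, a hyaluronan receptor, read 8.27 and 8.14 in mucosa and 9.0 and 8.97 in tumours (0.77 ± 0.24, adjusted p = 0.0521) and the crypt factor Sox9 8.04 and 7.86 in mucosa and 8.57 and 8.73 in tumours (0.70 ± 0.29, adjusted p = 0.138), both short of the threshold. Of the other Cd44 probes, 3 detected on all 4 arrays were called higher, by 1.92, 1.15 and 0.89 (adjusted p = 0.00143, 0.0197 and 0.0262 over all probes), and a further one read 0.43 (adjusted p = 0.212). The call ended with 1 array left out for Ascl2 (to 0.0966 without tumour replicate 2).

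Other growth pathways were mixed. In the BMP, TGF-beta and hedgehog list, 7 were higher and 1 lower of 25 measured (3, 3, 3 and 4 higher without 1 array). Inhba, the activin A subunit, read 5.54 and 5.27 in mucosa and 9.44 and 9.13 in tumours (3.88 ± 0.55, adjusted p = 0.00165), and the morphogen Shh 5.35 and 5.47 in mucosa and 8.66 and 8.05 in tumours (2.94 ± 0.59, adjusted p = 0.00794). Bmp7 was higher (2.32 ± 0.39, adjusted p = 0.003) and the ligand Bmp3 lower (-2.26 ± 0.39, adjusted p = 0.00351). Among growth factors and their regulators, 7 were higher and 3 lower of 31 measured (2, 2, 2 and 2 higher without 1 array). These included the MAP kinase phosphatase Dusp4 (3.14 ± 0.54), the growth factor Igf1 (2.43 ± 0.28) and the EGF receptor ligand Btc (1.47 ± 0.40) as higher, with adjusted p = 0.00364, 0.000386 and 0.034. Igfbp2, which binds insulin-like growth factors, was lower (-2.34 ± 0.30, adjusted p = 0.000792). Past 0.05 with 1 array left out went Shh (to 0.0773 without tumour replicate 1) and Btc (to 0.195 without wt replicate 2).

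Among factors that fix position along the gut, more were lower than higher, and most were not called. Titles and source names give the organ as colon without naming the part sampled. Whether the part differed between the groups was not tested. Of 36 measured homeobox and regional genes, 4 were higher and 11 lower (7, 6, 7 and 8 lower without 1 array). Cdx2, the master regulator of intestinal identity, read 10.94 and 11.56 in mucosa and 7.18 and 6.92 in tumours (-4.20 ± 0.54, adjusted p = 0.000788). The intestinal homeobox gene Isx read 8.96 and 9.31 in mucosa and 5.53 and 5.84 in tumours (-3.45 ± 0.22, adjusted p = 3.23e-05). Neighbouring genes of the HoxB cluster fell: Hoxb5 read 8.76 and 8.86 in mucosa and 5.16 and 5.72 in tumours (-3.37 ± 0.39), Hoxb6 7.30 and 7.12 in mucosa and 4.51 and 4.99 in tumours (-2.46 ± 0.28) and Hoxb7 9.16 and 9.07 in mucosa and 5.4 and 6.18 in tumours (-3.33 ± 0.85), with adjusted p = 0.000468, 0.00038 and 0.0248. Hoxb4 was at least 5.63-fold lower. Of the HoxA cluster, Hoxa9 was higher (1.63 ± 0.49, adjusted p = 0.0482). Cdx1, the paralog of Cdx2, read 10.58 and 10.93 in mucosa and 9.39 and 10.15 in tumours (-0.99 ± 0.32, adjusted p = 0.0635) and did not pass. Onecut2, a factor of liver and duodenum, was undetected in mucosa and at least 23.6-fold higher. Past 0.05 with 1 array left out went Hoxb7 (to 0.152 without tumour replicate 1), Hoxb4 (to 0.0573 without wt replicate 2), Hoxa9 (to 0.195 without wt replicate 1) and Onecut2 (to 0.0668 without tumour replicate 1).

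Genes of the mature colonocyte were among the deepest falls. Of 32 measured genes for transport of salt, water and acid, 1 was higher and 11 lower (8, 8, 7 and 8 lower without 1 array). The water channel Aqp8 read 12.09 and 12.03 in mucosa and 7.68 and 8.26 in tumours (-4.09 ± 0.40, adjusted p = 0.000156). Car4, a surface carbonic anhydrase, read 12.84 and 12.88 in mucosa and 9.60 and 9.0 in tumours (-3.56 ± 0.99, adjusted p = 0.0354). Both subunits of the bile acid exporter fell: Slc51b read 9.44 and 10.68 in mucosa and 6.49 and 5.97 in tumours (-3.84 ± 0.53, adjusted p = 0.00113), and Slc51a, undetected in tumours, was at least 56.3-fold lower. The magnesium channel Trpm6 (-3.34 ± 0.44), the chloride channel Cftr (-1.89 ± 0.30) and the sodium channel subunit Scnn1a (-1.49 ± 0.29) were also lower (adjusted p = 0.000857, 0.00231 and 0.00724). The other sodium channel subunit Scnn1b read 6.44 and 7.31 in mucosa and 6.41 and 7.29 in tumours (-0.03 ± 0.39, adjusted p = 0.98), with overlapping groups. With 1 array left out, the adjusted p passed 0.05 for Car4 (to 0.178 without tumour replicate 2) and Scnn1a (to 0.0672 without wt replicate 1).

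Of 38 measured surface enzyme and defence genes, 0 were higher and 18 lower (13, 14, 11 and 15 lower without 1 array). The dipeptidase Dpep1 read 10.59 and 11.13 in mucosa and 6.43 and 5.63 in tumours (-4.83 ± 0.70, adjusted p = 0.00141). The meprin subunits Mep1a and Mep1b, metalloproteases of the brush border, were lower (-3.22 ± 0.44 and -2.86 ± 0.52, adjusted p = 0.00107 and 0.00612). So were Cdhr2 and Cdhr5, the cadherins that link microvilli (-2.17 ± 0.49 and -1.66 ± 0.41, adjusted p = 0.0136 and 0.0222), and Krt20 and Klf4, a keratin and a transcription factor of differentiated cells (-2.05 ± 0.37 and -2.12 ± 0.26, adjusted p = 0.00568 and 0.000532). Calls lost with 1 array left out were Mep1b (to 0.0576 without tumour replicate 1), Cdhr2 (to 0.112 without tumour replicate 1), Cdhr5 (to 0.133 without tumour replicate 1) and Krt20 (to 0.0566 without wt replicate 1).

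Drug and xenobiotic metabolism had the highest number of lower genes of any list: 2 were higher and 27 lower of 47 measured (17, 17, 15 and 19 lower without 1 array). The cytochrome P450 Cyp2c55 read 13.91 and 13.26 in mucosa and 6.46 and 7.87 in tumours (-6.42 ± 0.88, adjusted p = 0.00112). Its relative Cyp2c65 was undetected in tumours and at least 41.1-fold lower. The carboxylesterases Ces1d, at 11.56 and 11.18 in mucosa and 6.91 and 7.35 in tumours, and Ces1f, at 10.37 and 9.98 in mucosa and 5.08 and 5.4 in tumours, differed by -4.24 ± 0.43 and -4.93 ± 0.69 (adjusted p = 0.000194 and 0.00123). Sulfotransferases followed, with -3.55 ± 0.49 for Sult1a1 and -3.06 ± 0.56 for Sult1d1 (adjusted p = 0.0011 and 0.00491), as did the nuclear receptor Nr1i2, a sensor of foreign compounds (-1.31 ± 0.33, adjusted p = 0.0233). A second Sult1d1 probe, detected on all 4 arrays, gave 0.29 ± 0.20 and was not called (adjusted p = 0.393 over all probes). These gene families hold close paralogs, and cross-reaction of their probes was not tested. Against the trend, the drug efflux pump Abcb1b was higher (1.94 ± 0.21, adjusted p = 0.000319), and Cyp2b10 at least 4.57-fold higher. The call ended with 1 array left out for Sult1d1 (to 0.0555 without wt replicate 1), Nr1i2 (to 0.145 without tumour replicate 1) and Cyp2b10 (to 0.246 without tumour replicate 2).

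Retinoid and energy genes were lower in smaller numbers. For retinoids and steroids 2 were higher and 6 lower of 24 measured (3, 2, 3 and 3 lower without 1 array). Aldh1a1, which makes retinoic acid, was at least 28.5-fold lower, while its relative Aldh1a3 was higher (2.44 ± 0.36, adjusted p = 0.00152). Stra6, the receptor for retinol-binding protein, was at least 13.6-fold higher. In fatty acid oxidation 1 was higher and 7 lower of 23 (0, 1, 0 and 2 lower without 1 array), among them Ehhadh (-1.85 ± 0.46, adjusted p = 0.0219), a peroxisomal enzyme. In oxidative phosphorylation 0 were higher and 9 lower of 44 (0, 1, 3 and 0 lower without 1 array), among them cytochrome c (Cycs, -1.59 ± 0.30, adjusted p = 0.00601) and the complex IV subunit Cox7b (-1.44 ± 0.34, adjusted p = 0.0165). The other Cycs probe, detected on all 4 arrays where the first was on 3, gave -0.65 and was not called (adjusted p = 0.0509 over all probes). With 1 array left out, the adjusted p passed 0.05 for Ehhadh (to 0.153 without wt replicate 1), Cycs (to 0.0649 without tumour replicate 2) and Cox7b (to 0.132 without tumour replicate 2).

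**Figure D3:**
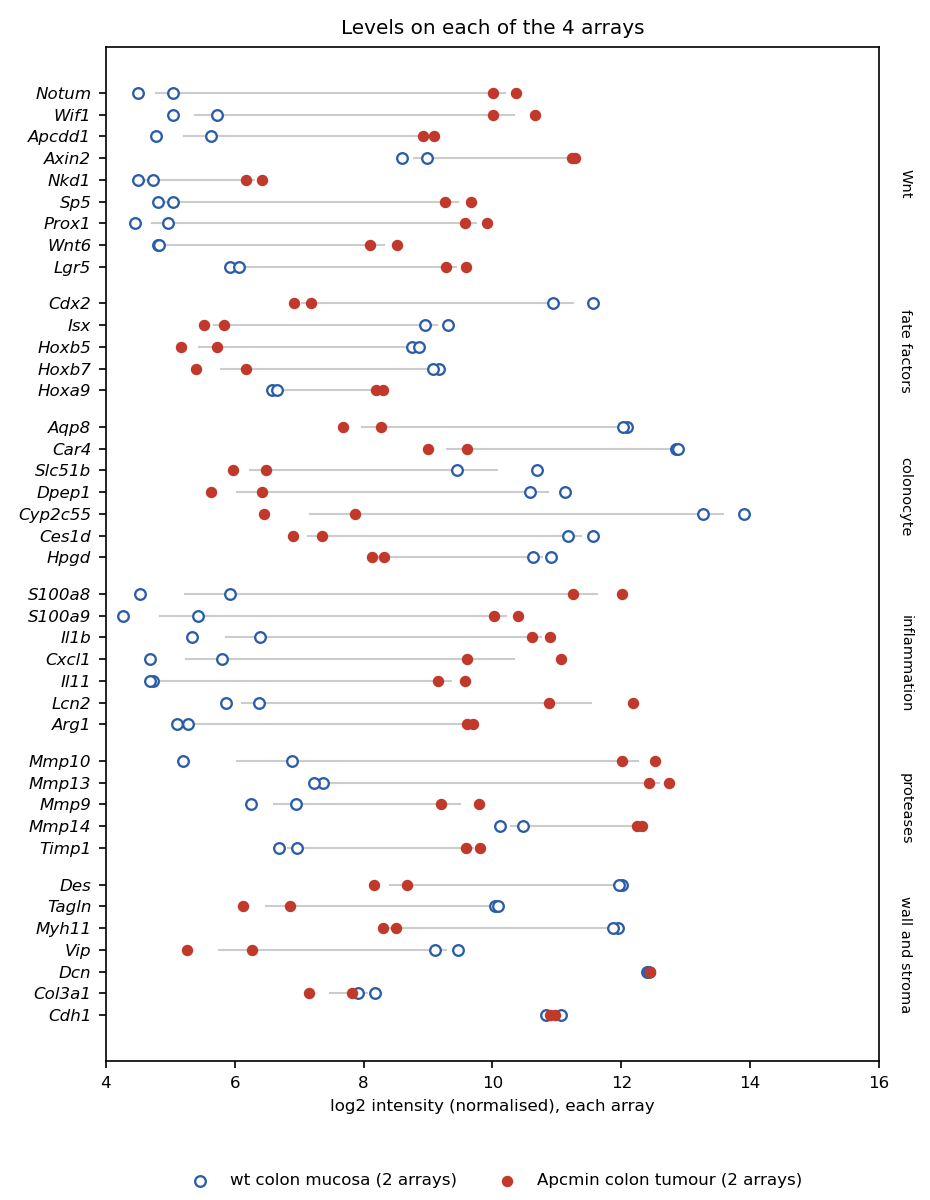
Log2 intensity of 40 genes on each of the 4 arrays, with the 2 wt colon mucosa arrays as open and the 2 Apcmin tumour arrays as filled circles and a line between the group means. Wnt, inflammation and protease genes lie to the right in tumours, and fate factors other than Hoxa9, colonocyte and muscle genes to the left. Cdh1 overlaps between the groups, and Dcn differs little.

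Goblet, enteroendocrine and tuft cell lists each held more genes called lower than higher. Of 24 measured goblet and mucus genes, 0 were higher and 9 lower (1, 4, 2 and 3 lower without 1 array). Retnlb, a secreted defence protein of goblet cells, read 13.83 and 13.59 in mucosa and 9.69 and 9.32 in tumours (-4.21 ± 1.22, adjusted p = 0.0423), and the goblet cell protein Clca1 14.47 and 14.66 in mucosa and 12.53 and 11.995 in tumours (-2.30 ± 0.67, adjusted p = 0.0426). The fate factor Spdef was lower (-1.44 ± 0.40, adjusted p = 0.0342). Zg16, an abundant mucus lectin, read 14.43 and 14.47 in mucosa and 14.24 and 14.02 in tumours (-0.32 ± 0.23, adjusted p = 0.414), so that not every bright goblet gene passed. Of 26 enteroendocrine genes, 1 was higher and 12 lower (9, 8, 9 and 8 lower without 1 array). Secretin (Sct) read 11.53 and 11.38 in mucosa and 7.14 and 7.48 in tumours (-4.15 ± 0.46, adjusted p = 0.000333), with somatostatin (Sst, -3.69 ± 0.51), proglucagon (Gcg, -3.68 ± 0.51) and the granule protein Chga (-1.65 ± 0.47) lower too (adjusted p = 0.00113, 0.00112 and 0.0391). The factor Isl1 was higher (3.09 ± 0.70, adjusted p = 0.0144). Of 14 tuft cell genes, 1 was higher and 3 lower (1, 1, 1 and 1 higher and 1, 1, 1 and 1 lower without 1 array). The kinase Dclk1 was at -1.30 ± 0.34 (adjusted p = 0.0276). Past 0.05 with 1 array left out went Retnlb (to 0.186 without wt replicate 1), Clca1 (to 0.217 without tumour replicate 2), Spdef (to 0.232 without wt replicate 2), Chga (to 0.207 without wt replicate 2), Isl1 (to 0.095 without wt replicate 1) and Dclk1 (to 0.167 without tumour replicate 2).

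Paneth cells sit at the crypt base of the small intestine, and the healthy mouse colon is known to lack them. Of 17 measured, 7 were higher and 0 lower (4, 6, 3 and 5 higher without 1 array). Defa20, an alpha-defensin, read 5.12 and 4.59 in mucosa and 12.84 and 12.63 in tumours, the largest difference of all called genes at 7.88 ± 0.56 (adjusted p = 3.93e-05). Its tumour level lay below that of the wt small intestine, which read 14.67 on its 1 readable array. A second Defa20 probe, detected on 2 arrays, gave 3.58 ± 1.44 and was not called (adjusted p = 0.134 over all probes). Defensin genes are nearly identical and cross-reaction of their probes was not tested. The lysozyme Lyz1 read 12.51 and 12.23 in mucosa and 14.50 and 14.75 in tumours (2.26 ± 0.32, adjusted p = 0.00126), with 7.17 and 6.24 for its other probes, and the protease Habp2, undetected in mucosa, was at least 24.9-fold higher.

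Neutrophil and monocyte genes rose as the list with the highest share called: of 27 measured, 19 were higher and 0 lower (11, 13, 11 and 14 higher without 1 array). S100a8 and S100a9, the calcium-binding proteins of neutrophil cytosol, read 5.93 and 4.53 in mucosa and 12.01 and 11.25 in tumours and 5.42 and 4.26 in mucosa and 10.40 and 10.02 in tumours. Their differences were 6.40 ± 0.63 and 5.37 ± 0.59 (adjusted p = 0.000164 and 0.000324). Arginase 1 (Arg1) read 5.27 and 5.11 in mucosa and 9.61 and 9.69 in tumours (4.46 ± 0.43, adjusted p = 0.000153), and the receptor Csf3r, which senses the neutrophil growth factor, was higher (1.43 ± 0.34, adjusted p = 0.0175). Retnlg, undetected in mucosa, was at least 7.03-fold higher. The summed bead signal of the list, as deposited, was 17749 and 14557 in mucosa and 33333 and 22262 in tumours, and did not overlap. Such sums are neither background-corrected nor normalised. The brightness of a whole array enters them, and the brightest probes weigh most. With 1 array left out, the adjusted p passed 0.05 for Csf3r (to 0.165 without wt replicate 1).

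Some cytokine and antimicrobial genes were higher too. Of 49 measured chemokines, cytokines and receptors, 19 were higher and 1 lower (11, 13, 11 and 14 higher without 1 array). The neutrophil attractant Cxcl1 read 5.80 and 4.68 in mucosa and 11.07 and 9.60 in tumours (5.09 ± 0.58, adjusted p = 0.000395), the cytokine Il1b 6.39 and 5.34 in mucosa and 10.89 and 10.62 in tumours (4.90 ± 0.42, adjusted p = 9.01e-05) and Il11, a relative of interleukin 6, 4.73 and 4.68 in mucosa and 9.57 and 9.15 in tumours (4.66 ± 0.82, adjusted p = 0.00393). Tnf (2.57 ± 0.44, adjusted p = 0.00354) and Il23a (2.59 ± 0.33, adjusted p = 0.000735) were higher, and Ccl28, which recruits antibody-producing cells, was lower (-1.47 ± 0.33, adjusted p = 0.0142). Of 22 antimicrobial genes, 10 were higher and 2 lower (7, 7, 6 and 7 higher without 1 array). Lcn2, which starves bacteria of iron, read 6.37 and 5.86 in mucosa and 12.18 and 10.87 in tumours (5.41 ± 0.81, adjusted p = 0.0017), and the WAP protein Wfdc18 7.58 and 7.46 in mucosa and 13.25 and 12.74 in tumours (5.48 ± 0.40, adjusted p = 4.26e-05). Reg3b read 7.08 and 10.08 in mucosa and 10.12 and 10.57 in tumours and was not called (adjusted p = 0.198), the mucosa arrays lying 3.01 log2 units apart. Calls lost with 1 array left out were Ccl28 (to 0.12 without wt replicate 2).

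Eicosanoid genes were split. Of 25 measured, 3 were higher and 6 lower (0, 1, 0 and 2 lower without 1 array). The lipoxygenase Alox12 read 5.76 and 5.35 in mucosa and 11.54 and 11.11 in tumours (5.77 ± 0.68, adjusted p = 0.000474), and its other probe, detected on 2 arrays, differed by 0.84 (adjusted p = 0.0518 over all probes). Hpgd, which degrades prostaglandins, read 10.90 and 10.64 in mucosa and 8.13 and 8.32 in tumours (-2.54 ± 0.63, adjusted p = 0.0219), and the uptake carrier Slco2a1 was lower too (-1.56 ± 0.32, adjusted p = 0.0089). Ptges, a prostaglandin E synthase, was higher (0.90 ± 0.22, adjusted p = 0.0183). Ptgs2, cyclooxygenase 2, had no probe that passed the filter of the fit. The call ended with 1 array left out for Hpgd (to 0.132 without wt replicate 1), Slco2a1 (to 0.0854 without wt replicate 1) and Ptges (to 0.16 without tumour replicate 1).

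Matrix metalloproteinases, which cut collagen and other matrix, included several that were higher. Of 34 measured proteases and inhibitors, 12 were higher and 1 lower (8, 10, 8 and 10 higher without 1 array). Mmp10, a stromelysin, read 6.89 and 5.19 in mucosa and 12.53 and 12.004 in tumours (6.23 ± 0.52, adjusted p = 8.57e-05), and the collagenase Mmp13 7.37 and 7.22 in mucosa and 12.74 and 12.43 in tumours (5.29 ± 0.49, adjusted p = 0.000124). Mmp3, a further stromelysin, read 5.03 and 5.19 in mucosa and 6.81 and 8.18 in tumours (2.38 ± 0.67, adjusted p = 0.0375) and Mmp9, a gelatinase, 6.96 and 6.26 in mucosa and 9.79 and 9.20 in tumours (2.89 ± 0.44, adjusted p = 0.00194). Mmp7 and Mmp12, undetected in mucosa, were at least 6.55-fold and at least 4.56-fold higher. The membrane-bound Mmp14 (1.99 ± 0.30, adjusted p = 0.00165) and the inhibitor Timp1 (2.87 ± 0.60, adjusted p = 0.00949) rose as well. Calls lost with 1 array left out were Mmp3 (to 0.261 without tumour replicate 2), Mmp7 (to 0.0636 without tumour replicate 1) and Timp1 (to 0.0755 without wt replicate 1).

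Promoters of these proteases are shown because 5 of the 9 detected metalloproteinases found in the table held TGANTCA, the site of AP-1 factors, within 150 bases before a start. Capitals mark it in the sequences, which are from RefSeq (GRCm38.p6, plus strand, chromosome 9): Mmp3 at chr9:7445672-7445821, Mmp7 at chr9:7691940-7692089, Mmp10 at chr9:7502192-7502341 and Mmp13 at chr9:7272364-7272513.
Mmp3: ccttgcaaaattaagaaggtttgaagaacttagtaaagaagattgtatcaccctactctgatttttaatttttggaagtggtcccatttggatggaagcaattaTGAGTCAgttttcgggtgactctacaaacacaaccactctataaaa
Mmp7: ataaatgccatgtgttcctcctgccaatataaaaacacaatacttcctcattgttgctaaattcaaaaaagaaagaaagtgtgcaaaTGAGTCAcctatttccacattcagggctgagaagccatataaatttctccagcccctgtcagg
Mmp10: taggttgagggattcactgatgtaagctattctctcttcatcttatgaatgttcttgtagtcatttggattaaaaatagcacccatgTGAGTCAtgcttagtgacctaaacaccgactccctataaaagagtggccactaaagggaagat
Mmp13: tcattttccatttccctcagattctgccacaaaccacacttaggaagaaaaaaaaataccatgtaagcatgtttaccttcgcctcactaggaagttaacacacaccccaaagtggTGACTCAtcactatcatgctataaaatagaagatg
The match starts 46, 63, 63 and 35 bases before the start. Mmp7 and Mmp12 each held it at 1 of their 2 starts. The motif reads the same on both strands and was present in 4.96% of the promoters of all genes of the table, in 6.32% of those called higher, 6.26% of those called lower and 3.8% of those not called. These 5 genes are neighbours in 1 cluster and are not independent of each other.

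Of 44 measured collagen and matrix genes, 11 were higher and 4 lower (8, 6, 7 and 6 higher without 1 array). Lox, which crosslinks collagen, read 6.82 and 6.08 in mucosa and 9.30 and 8.82 in tumours (2.61 ± 0.65, adjusted p = 0.0221), and the basement membrane chains Col4a1 and Col18a1 were higher (1.23 ± 0.18 and 2.01 ± 0.31, adjusted p = 0.00156 and 0.00192). Of the fibroblast markers, Dcn read 12.40 and 12.43 in mucosa and 12.44 and 12.44 in tumours (0.02 ± 0.38, adjusted p = 0.981). Col3a1 read 8.18 and 7.91 in mucosa and 7.82 and 7.15 in tumours (-0.56 ± 0.37, adjusted p = 0.357). A second Col3a1 probe, detected on all 4 arrays, gave 0.38 (adjusted p = 0.584 over all probes). Col1a1 read 8.27 and 7.55 in mucosa and 9.35 and 9.67 in tumours (1.60 ± 0.60, adjusted p = 0.102). Lum (-0.65 ± 0.53) and Pdgfra (-0.02 ± 0.61) were not called either (adjusted p = 0.477 and 0.99). In the list of fetal and regenerating epithelium, 9 were higher and 2 lower of 25 (5, 4, 4 and 6 higher without 1 array). The secreted chaperone Clu read 8.41 and 8.66 in mucosa and 12.52 and 12.85 in tumours (4.16 ± 0.28, adjusted p = 3.23e-05), and the keratins Krt23 and Krt17 were higher (3.84 ± 0.48 and 3.18 ± 0.59, adjusted p = 0.000663 and 0.00518). Chosen after its value was seen, Krt14, a keratin of basal stratified epithelium, read 6.60 and 6.33 in mucosa and 11.06 and 11.52 in tumours (4.83 ± 0.97, adjusted p = 0.00794). Past 0.05 with 1 array left out went Lox (to 0.152 without wt replicate 2), Krt17 (to 0.0584 without tumour replicate 1) and Krt14 (to 0.0614 without tumour replicate 2).

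Smooth muscle genes were lower in every called case: of 25 measured, 0 were higher and 17 lower (13, 13, 14 and 13 lower without 1 array). Desmin (Des) read 12.01 and 11.97 in mucosa and 8.67 and 8.16 in tumours (-3.58 ± 0.48, adjusted p = 0.00103), and the contractile proteins Tagln and Myh11 10.04 and 10.09 in mucosa and 6.86 and 6.13 in tumours and 11.95 and 11.87 in mucosa and 8.50 and 8.29 in tumours (-3.57 ± 0.39 and -3.51 ± 0.87, adjusted p = 0.000324 and 0.0211). The summed bead signal of the list, as deposited and not normalised, was 113253 and 96505 in mucosa and 41357 and 31893 in tumours. It did not overlap. Of the enteric neuron genes, 0 were higher and 7 lower of 16 (4, 4, 6 and 3 lower without 1 array), with the neuropeptide Vip at 9.46 and 9.11 in mucosa and 6.27 and 5.26 in tumours (-3.52 ± 0.72, adjusted p = 0.00868). Several Hox genes and Meis1 are also expressed by gut muscle, and the part of muscle content in the falls above was not tested. With 1 array left out, the adjusted p passed 0.05 for Myh11 (to 0.113 without wt replicate 1) and Vip (to 0.0815 without tumour replicate 2).

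Most lymphocyte and antigen presentation genes were not called. Over all genes tested 6.62% were called higher and 7.9% lower, and counts in lists this small are given only as a description. Of 21 T cell genes, 1 was higher and 2 lower, and of 13 B and plasma cell genes 0 were called. Of 25 genes of MHC presentation 0 were higher and 4 lower (0, 0, 0 and 0 lower without 1 array). Called or not, 24 of these 25 had a negative difference, and the list median was -1.15, beside 0.016 for all genes tested. The summed bead signal of the MHC list, as deposited and not normalised, was 61722 and 46668 in mucosa and 28034 and 19122.5 in tumours. It did not overlap. H2-DMb1, which loads peptides on MHC class II, read 9.45 and 9.49 in mucosa and 7.86 and 7.76 in tumours (-1.66 ± 0.49, adjusted p = 0.0453). Of 39 interferon response genes 2 were higher and 2 lower (0, 2, 2 and 1 lower without 1 array), Irf7 being lower (-2.34 ± 0.44, adjusted p = 0.00567) and the membrane protein Ifitm3 higher (2.07 ± 0.32, adjusted p = 0.0021). Of 27 macrophage and dendritic cell genes, 4 were higher and 4 lower (1, 1, 1 and 1 higher and 3, 3, 3 and 3 lower without 1 array). Gpnmb, a membrane glycoprotein, and Trem2, a lipid-sensing receptor, were higher (1.54 ± 0.34 and 1.01 ± 0.24, adjusted p = 0.0147 and 0.0183), and the factor Irf8 and the protease Ctss lower (-1.15 ± 0.20 and -1.30 ± 0.35, adjusted p = 0.00359 and 0.0314). Of 6 mast cell and eosinophil genes, 2 were higher and 0 lower (0, 0, 0 and 0 higher without 1 array): the histamine-forming enzyme Hdc (3.44 ± 0.73, adjusted p = 0.0104) and the mast cell protease Cma1 (2.16 ± 0.56, adjusted p = 0.0262). The other Cma1 probe, detected on all 4 arrays where the first was on 3, gave 1.82 and was not called (adjusted p = 0.0709 over all probes). The mast cell markers Cpa3 and Mcpt1, undetected in mucosa, were not called either (adjusted p = 0.876 and 0.869). Of 9 red blood cell and heme genes, 2 were higher and 0 lower (1, 1, 1 and 1 higher without 1 array). Hba-a1, a globin chain, read 10.43 and 8.73 in mucosa and 13.14 and 12.61 in tumours (3.29 ± 0.59, adjusted p = 0.0043). The part of blood content in the neutrophil counts was not tested. Calls lost with 1 array left out were H2-DMb1 (to 0.185 without tumour replicate 2), Irf7 (to 0.0576 without wt replicate 1), Gpnmb (to 0.0918 without wt replicate 1), Trem2 (to 0.151 without wt replicate 1), Ctss (to 0.19 without wt replicate 1), Hdc (to 0.0792 without tumour replicate 2) and Cma1 (to 0.195 without tumour replicate 2).

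Most cell growth genes were not called, and the called ones were higher. Of 43 cell cycle and replication genes, 11 were higher and 0 lower (1, 1, 1 and 3 higher without 1 array), among them the replication helicase subunits Mcm7 at 5.68 and 5.75 in mucosa and 7.12 and 7.44 in tumours (1.57 ± 0.37, adjusted p = 0.0171) and Mcm3 (1.44 ± 0.37, adjusted p = 0.0248). Of 37 ribosome biogenesis genes, 12 were higher and 0 lower (1, 1, 1 and 1 higher without 1 array), among them the nucleolar proteins Nop56 (1.39 ± 0.30, adjusted p = 0.0122) and Fbl (1.01 ± 0.28, adjusted p = 0.0337). Of 32 genes of nucleotide, serine and polyamine synthesis, 7 were higher and 0 lower (1, 4, 2 and 2 higher without 1 array). The cystine carrier Slc7a11 read 5.0 and 5.11 in mucosa and 8.15 and 8.33 in tumours (3.18 ± 0.33, adjusted p = 0.000237), and Phgdh, the entry enzyme of serine synthesis, 5.78 and 6.21 in mucosa and 7.63 and 7.61 in tumours (1.62 ± 0.37, adjusted p = 0.0149). The list medians were 0.74, 0.76 and 0.57, beside 0.016 for all genes tested. The call ended with 1 array left out for Mcm7 (to 0.121 without tumour replicate 2), Mcm3 (to 0.146 without wt replicate 2), Nop56 (to 0.0934 without wt replicate 1), Fbl (to 0.196 without wt replicate 1) and Phgdh (to 0.125 without wt replicate 1).

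The 2 tumours were close to each other. The median absolute gap between them was 0.182 log2 units over the measured genes, against 0.168 between the mucosa samples, and 74 and 73 genes lay more than 1 unit apart. Some interferon-linked genes were lower in tumour replicate 2 than in replicate 1: the chemokine Cxcl9 read 7.52 and 7.94 in mucosa and 9.20 and 5.68 in tumours, Igtp, an interferon-induced GTPase, 8.79 and 9.14 in mucosa and 8.67 and 7.10 in tumours, and the cytokine Ccl8 8.84 and 8.68 in mucosa and 8.29 and 6.59 in tumours. For Igtp and Ccl8 tumour replicate 1 lay near the mucosa and replicate 2 below it, while for Cxcl9 replicate 1 lay above the mucosa and replicate 2 below. The median gap (replicate 2 minus 1) over the 39 interferon genes was -0.37 in tumours and 0.34 in mucosa. Higher in tumour replicate 2 were Ms4a10 (8.02 and 6.96 in mucosa and 7.00 and 9.27 in tumours) and the protease Mmp3 (5.03 and 5.19 in mucosa and 6.81 and 8.18 in tumours). Eif2s3y, a gene of the Y chromosome, read 8.95 and 4.35 in mucosa and 4.48 and 7.97 in tumours, and Xist, transcribed from an inactive X chromosome, 4.49 and 7.04 in mucosa and 7.25 and 4.63 in tumours. By these genes wt replicate 1 and tumour replicate 2 carried Y transcripts and the other 2 did not, so that each group held 1 of each, and gaps within a group cannot be told apart from sex.

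**Figure D4:**
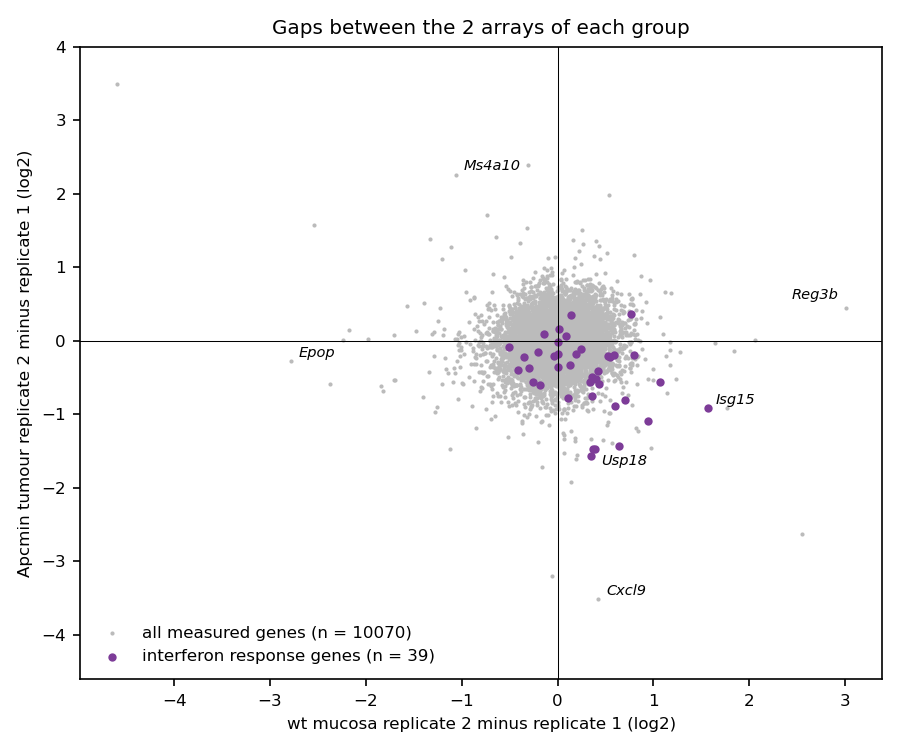
Gap between the 2 tumour arrays (replicate 2 minus 1, vertical axis) against that between the 2 wt mucosa arrays (horizontal axis), in log2 units, for the 10070 measured genes in grey and the 39 interferon response genes in purple. Interferon genes lie mostly below 0 on the vertical axis, and Cxcl9 lies far below.

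The same contrast in the small intestine (Apcmin tumours, n = 2, against 1 readable wt array) was set beside the colon, and the difference of the changes was tested. Limma called 169 of 11230 genes (1.5%), 74 with a higher (0.659%) and 95 with a lower colon change (0.846%). With 1 wt small intestinal array, its own spread is assumed to be that of the other groups. Without wt replicate 1, wt replicate 2, tumour replicate 1 or tumour replicate 2 of the colon the count was 30, 32, 28 and 38, and over all 16 arrays 0. Clu was higher in colon tumours and read 11.87 in the wt small intestine and 11.78 and 12.15 in its tumours, a difference of changes of 4.06 ± 0.45 (adjusted p = 0.00286). Mmp10 read 9.76 there against 9.63 and 9.70 (6.32 ± 0.82, adjusted p = 0.00484). Cdx2 read 10.59 and 10.49 and 10.85 (-4.28 ± 0.85, adjusted p = 0.036). Isx read 9.40 and 9.25 and 9.04 (-3.19 ± 0.35, adjusted p = 0.00286). In these 4 genes the colon groups did not overlap, and each small intestinal tumour lay close to the wt array.

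**Figure D5:**
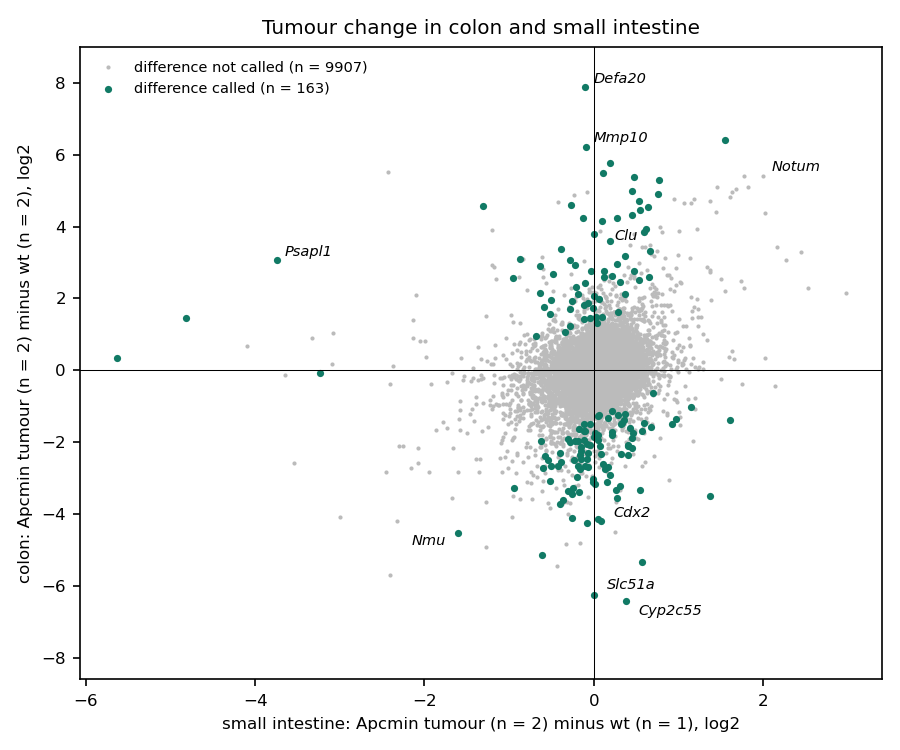
Log2 difference of Apcmin tumours against wt in the colon (vertical axis, n = 2 and 2) and in the small intestine (horizontal axis, n = 2 and 1) for the 10070 measured genes, with the 163 whose difference between organs was called in green. Defa20, Mmp10 and Clu lie high and Cdx2, Slc51a and Cyp2c55 low near 0 on the horizontal axis, while Notum is positive on both.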

How the data were processed

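RNA from dissected mucosa and tumour (TRIZOL extraction, Ambion MessageAmp labelling, per the labels' protocols) was read on Illumina bead arrays, 1 per sample. The deposited intensity values are average bead signals of probes, with no background correction or normalisation by the authors that the file headers or values show. The software is not given in the sources used here. A detection p-value stands beside each intensity, as deposited by the authors. The series matrix, also deposited as intensity, served only as an alternative.

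The normexp background correction of limma (nec, offset 16) took its background from those detection p-values. Log2 values of the 14 readable arrays were then quantile normalised, with signals under 25 missing. A probe had to be detected on 2 or more arrays and to name a single gene. Of 25697 probes, 23978 had 1 symbol and 1719 had none, and 2 further lines lacked an identifier and were dropped. The brightest probe stood for its gene. Of 406 called genes with another detected probe, 393 had the same sign on all such probes. For only 172 of the 406 was every other detected probe also called the same way. limma's lmFit and eBayes were run on 7 groups, two-sided, with 7 residual degrees of freedom and Benjamini-Hochberg adjustment over 11230 genes. No block was used. The number of arrays limits the precision. In arrays simulated for this comparison, 29% of 2-fold and 95% of 4-fold changes were recovered, with 9 false calls over 11230 genes. The changes were placed only in genes brighter than the median, in independent normal noise of the fitted spread. Fewer genes were changed there than were called in the data, and recovery of dim genes was not measured. Alternatives covered the arrays fitted, block, scaling, background, offset, filter, probe choice and each array left out.

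The members and all lists were chosen with earlier results of these data known. Named genes were the 15 largest rises and falls whose arrays did not overlap, called genes of each list (with up to 3 of smallest p where fewer than 3 were called), the 8 largest gaps each way within a group, the 5 smallest p each way in the organ difference, the cell type markers and 6 fixed genes. Ccnd1, Cd44, Sox9, Cdx1, Zg16, Scnn1b, Krt14, Krt15, Asprv1, Sox21, Eif2s3y and Xist were taken after their values were seen. Promoters came from RefSeq (GRCm38.p6). R 4.3.3 was used with limma 3.58.1. Motif searches and plots used Python 3.11, pandas 2.3.3 and matplotlib 3.10.9.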

Additional observations from a re-analysis of the deposited data

Results flagged for a closer look

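For 10 genes the tumour change in the colon differed from that in the small intestine by limma's test of the difference itself, the 5 of smallest p in each direction. The wt small intestine had 1 readable array, and the spread between wt animals there is not measured. Erp27 was undetected in colon mucosa and Nmu, Slc51a and Hkdc1 in colon tumours, so that their fitted values are no bound. No explanation was tested for any of them.

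Larger in the colon by 2.64 was Erp27, a protein of the endoplasmic reticulum, which read 7.18 and 7.26 in colon tumours and 4.32 to 4.47 in the small intestine. Clu differed by 4.06 and Evx1, a homeobox factor, by 3.4. Defa20 differed by 7.98, being bright in the wt small intestine (14.67) and its tumours (14.37 and 14.75). Psca differed by 5.98 through the small intestine, where wt read 11.21 and tumours 5.43 and 5.73, while all 4 colon arrays lay from 4.91 to 5.34.

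Lower in the colon change were Nmu, the neuropeptide neuromedin U, at -2.91, and the homeobox gene Isx at -3.19. Hao2, a peroxisomal oxidase, differed by -3.03, and its small intestinal arrays all lay from 4.33 to 4.35. The bile acid exporter subunit Slc51a differed by -6.28, with small intestinal levels of 11.63 to 12.23, and the hexokinase relative Hkdc1 by -3.85.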

How the results depend on the processing

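Against 1630 calls, the fit of the 4 colon arrays alone made 3615 and that of all 16 arrays, the 2 unreadable ones included, 0. Leaving out 1 array gave 584 to 1859. For the difference between organs, 169 calls became 0 on all 16 arrays and 28 to 346 with 1 array left out (346 without Apcmin small intestinal replicate 2), and none could be had without wt small intestinal replicate 2. With probes detected on all 4 colon arrays, chosen for the organ difference after seeing the data, 77 genes were called there, over fewer genes tested (8548). Otherwise settings on the 14 readable arrays gave 1338 to 2028 and 145 to 186 calls, and the 7 readable colon arrays 2085. The cause was not tested. The replicate number as a block gave 2028 calls, 975 higher and 1053 lower, and same-numbered arrays deviated from their group means with a correlation of 0.078 over genes. The labels do not tie a number to an animal, and the numbers are not read as pairs. Values with no call that changed sign were Pecam1 (-0.18 with probes averaged), Dcn (-0.22 under median scaling, -0.017 with probes averaged), Scnn1b (0.0023 under median scaling, -0.47 to 0.42 with 1 array left out), and with 1 array left out Apc (-0.022 to 0.15), Cdh1 (-0.14 to 0.097), Cxcl9 (-2.04 to 1.47), Eif2s3y (-2.72 to 1.85), Ms4a10 (-0.49 to 1.78), Tek (-0.43 to 0.036) and Xist (-1.13 to 1.49). None of the 146 called genes named changed sign under these settings, and 87 kept their call without each of the 4 arrays. Leaving out any 1 of the 4 ended the call of Angpt2, Btc, Car4, Cdhr5, Chga, Clca1, Cma1, Cox7b, Ctss, Cyp2b10, Dclk1, Ehhadh and Fbl. The same held for Gpnmb, H2-DMb1, Hdc, Heph, Hoxa9, Hoxb7, Hpgd, Isl1, Lox, Mcm3, Mcm7, Mmp3 and Myh11. It held as well for Nop56, Nr1i2, Phgdh, Retnlb, Rspo3, Slc30a1, Spdef, Tcf7l2, Tiam1, Timp1 and Trem2.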

Other observations

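Metal handling was among the gene groups not described above: of 23 measured genes, 7 were higher and 3 lower in colon tumours (4 higher and 1 lower without each of the 4 arrays in turn). The metallothioneins Mt3 and Mt4, which bind zinc and copper, read 6.59 and 6.15 in mucosa and 10.29 and 9.44 in tumours (3.50 ± 0.52, adjusted p = 0.00156) and 4.78 and 4.58 against 8.56 and 8.38 (3.79 ± 0.28, adjusted p = 4.24e-05) by limma. The ferroxidase Cp was higher (2.56 ± 0.42, adjusted p = 0.00344) and its intestinal relative Heph, which passes iron to the blood, lower (-1.67 ± 0.50, adjusted p = 0.0474), though its other probes gave -1.59, -0.79, -0.49 and -0.60 and none was called. The zinc exporter Slc30a1 was lower too (-1.94 ± 0.51, adjusted p = 0.0268). The calls ended with 1 array left out for Heph (to 0.235 without wt replicate 1) and Slc30a1 (to 0.161 without tumour replicate 2).

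Several genes of skin and stratified epithelium, chosen after their values were seen, were higher in both tumours by limma. Asprv1, a protease of the epidermis, read 4.68 and 4.93 in mucosa and 9.92 and 9.24 in tumours (4.78 ± 0.60, adjusted p = 0.000716). Krt15, a basal keratin, read 4.56 and 4.86 against 7.31 and 8.00 (2.94 ± 0.39, adjusted p = 0.000933). The factor Sox21 read 7.35 and 7.94 against 11.45 and 11.67 (3.91 ± 0.71, adjusted p = 0.00466). Of 28 measured endothelial and lymphatic genes, 6 were higher and 0 lower (4, 1, 1 and 3 higher without each array). The defining markers Pecam1, Cdh5, Kdr and Tek did not pass, while the factor Sox17 (3.12 ± 0.65, adjusted p = 0.00949) and the vessel growth regulator Angpt2 (2.69 ± 0.67, adjusted p = 0.0217) were higher. A second Angpt2 probe, detected on 2 arrays, differed by 0.88 and was not called. Those that did not hold with 1 array left out were Sox17 (to 0.0868 without tumour replicate 1) and Angpt2 (to 0.129 without wt replicate 2).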
